A study of Mus musculus with 2 samples.

Results

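Genes for cell-cell junctions and for keratin filaments were examined in CMT167R cells, a line derived from the mouse lung carcinoma line CMT167 and described by the labels as resistant to anti-PD1 antibody. The set was fixed by gene symbol: claudins (Cldn), occludin and zonula occludens genes, cadherins (Cdh), catenins, Epcam and desmosomal genes (Dsg, Dsc, Dsp, Pkp1 to Pkp3). It also took connexins (Gja, Gjb and Gjc), keratins (Krt followed by a number alone, so not Krt6a) and vimentin. It held 144 protein-coding genes of the 54532 genes in the table, of which 22046 were protein-coding. The rule used names and gene class, not measured values, but it was chosen with earlier results of these data known. The design had 2 groups of 1 library each. PKCi was CMT167R cells given 50 nM of a compound of that name for 24 h, and CON was the same cells left untreated. The labels do not say which molecule PKCi is, or whether the untreated cells received its solvent. With 1 library in each group there is no replicate check, no p-value can be given, and every interval below covers counting error in these libraries only.

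Epithelial cells are held together by several kinds of junction. Tight junctions seal the space between cells with strands of claudins, which scaffold proteins of the zonula occludens family tie to actin. Adherens junctions join cells through cadherins bound to catenins inside the cell, and desmosomes join them through desmogleins and desmocollins, which plakoglobin, plakophilins and desmoplakin couple to keratin filaments. Gap junctions are channels of connexins that pass small molecules between cells. Keratin filaments are built from type I and type II keratins in equal amounts, with Krt8 and Krt18 as the usual pair of simple, single-layered epithelium such as that of the lung. Vimentin forms the filaments of mesenchymal cells and is also common in cultured carcinoma lines.

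The unit of level is the count per 1000000 counts of the library (CPM), so that 16.1 counts made 1 CPM in either library, and levels of different genes are compared only after division by the listed gene length (TPM). The PKCi library held 16071153 counts and the CON library 16090186, so a gene listed at 0 could still have stood at 0.187 CPM with PKCi or 0.186 CPM in CON (3 counts of the total). The 144 genes took 0.781% of counts in the PKCi library and 0.663% in the CON library. Only 37 of them reached 1 CPM in at least 1 library. Of these, 34 passed in both libraries, 2 (Dsp and Krt16) through the PKCi library alone and 1 (Cldn1) through the CON library alone, so those 3 could pass only with a difference between libraries. Another 35 genes had counts below that level, and 72 were listed at 0 in both libraries. The common epithelial markers (Krt8, Krt18, Krt19, Krt7, Epcam and Cdh1) summed to 2057 CPM in the PKCi library and 1685 CPM in the CON library, and most of that came from Krt8 and Krt18. In bulk RNA, fewer cells of a kind and less RNA per cell cannot be told apart.

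The labels' extraction text mentions retinas, so markers of retina and of other cell types were summed. Retina markers summed to 0.373 CPM in the PKCi library and 0.124 CPM in the CON library, with 6 of 8 at 0 in both, and endothelial markers to 1.24 and 0.621 CPM, with 2 of 7 (Cldn5 and Emcn) at 0 in both. Alveolar markers were at 0.311 CPM in each library, with 6 of 8 at 0 in both, Nkx2-1 and Sftpc among them. Airway markers summed to 0.622 CPM with PKCi and 0.435 CPM in CON, with 2 of 4 at 0. Leukocyte markers summed to 7.16 CPM with PKCi and 10.9 CPM in CON, and its main members went opposite ways, Lyz2 with 50 and 133 counts and Cd68 with 57 and 38, with 6 of 10 at 0 in both, Ptprc included. Fibroblast markers summed to 38.3 CPM with PKCi and 101 CPM in CON, of which Pdgfrb alone made 24.4 and 88.4 CPM and Col1a1 4.36 and 8.89 CPM. Some other fibroblast markers were higher with PKCi: Pdgfra had 97 and 43 counts, Col3a1 38 and 14, and Dcn 17 and 1. Col1a2 had 0 counts with PKCi and 5 in CON, Lum had 1 and 0, and Thy1, 1 of the 8, was at 0 in both. The part of these levels in the results below was not tested.

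The 250 bases before the transcription start are shown for 3 genes past 2-fold: Cldn2, which was higher in the PKCi library, Cldn1, a claudin that was lower, and the type I keratin gene Krt13, which was also lower. They are RefSeq sequences on GRCm38.p6, printed 5′ to 3′ on the strand of the gene. Capitals mark the letters of a TATA box (TATAAA), an E-box of the kind bound by Snail and Zeb factors (CACCTG), an AP-1 site (TGACTCA), a TEAD site (GGAATG) or a GC box (GGGCGG), each searched on both strands.
Cldn2, chrX:139800558-139800807, plus strand: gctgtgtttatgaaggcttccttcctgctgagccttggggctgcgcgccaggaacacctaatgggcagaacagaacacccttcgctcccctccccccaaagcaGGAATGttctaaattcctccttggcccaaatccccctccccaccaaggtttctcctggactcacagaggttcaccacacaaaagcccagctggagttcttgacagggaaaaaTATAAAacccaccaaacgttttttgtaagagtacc
Cldn1, chr16:26371840-26372089, minus strand: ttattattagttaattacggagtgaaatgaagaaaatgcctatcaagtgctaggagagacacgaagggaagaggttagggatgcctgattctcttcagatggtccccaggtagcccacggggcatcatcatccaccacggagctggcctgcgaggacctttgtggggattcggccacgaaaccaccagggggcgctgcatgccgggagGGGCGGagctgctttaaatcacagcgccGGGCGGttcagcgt
Krt13, chr11:100121567-100121816, minus strand, before the more upstream of 2 RefSeq starts: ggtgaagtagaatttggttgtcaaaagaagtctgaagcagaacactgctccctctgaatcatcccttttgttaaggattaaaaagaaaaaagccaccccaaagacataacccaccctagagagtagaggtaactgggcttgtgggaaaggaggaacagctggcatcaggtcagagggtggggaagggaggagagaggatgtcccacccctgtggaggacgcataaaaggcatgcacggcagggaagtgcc

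The Cldn2 window held the TEAD letters beginning at position -147 and a TATA box beginning at -35, counted back from the start site. The Cldn1 window held 2 GC boxes, at -42 and -14, and no TATA box. The Krt13 window held none of the 5 motifs as spelled. RefSeq windows were at hand for 93 of the 144 genes (112 windows). Of these windows, 28 held the E-box letters, against 17.2% of all 32851 windows, and 22.3% held a TATA box, against 12.4%. The TEAD letters stood in 10.7% of them against 12.6% of all windows, GC boxes in 28.6% against 32.7%, and AP-1 letters in 4.46% of each. A match of letters describes the window only.

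Of the 37 measured genes 29 lay within 2-fold between the libraries on the log2(CPM + 1) scale, although counting intervals included 1 for only 9. Claudins and type I keratins each held genes past 2-fold in both directions. At least 2-fold differences on the log2(CPM + 1) scale were found for 4 genes higher in the PKCi library, including Cdh13, Cldn2 and Krt16, and 4 lower, including Krt80, Krt13 and Cldn1. This was 10.8% of the measured members in each direction, beside 6.53% of all 12273 measured genes on the higher side and 5.13% on the lower. Krt16 and Cldn1 are among the 3 genes that passed the level filter through a single library. The median log2 ratio of PKCi over CON was 0.16 over the 37 genes and −0.01 over all measured genes. Of the 37, 25 lay above 0 and 12 below, and 49.2% of all measured genes lay above 0. Closest to the 2-fold line were Dsp at a log2 ratio of 0.998 and Pkp1 at 0.90, both inside it, and Krt16 past it at 1.13. On the lower side Cldn1 was the nearest past it, at −1.23.

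**Figure D1:**
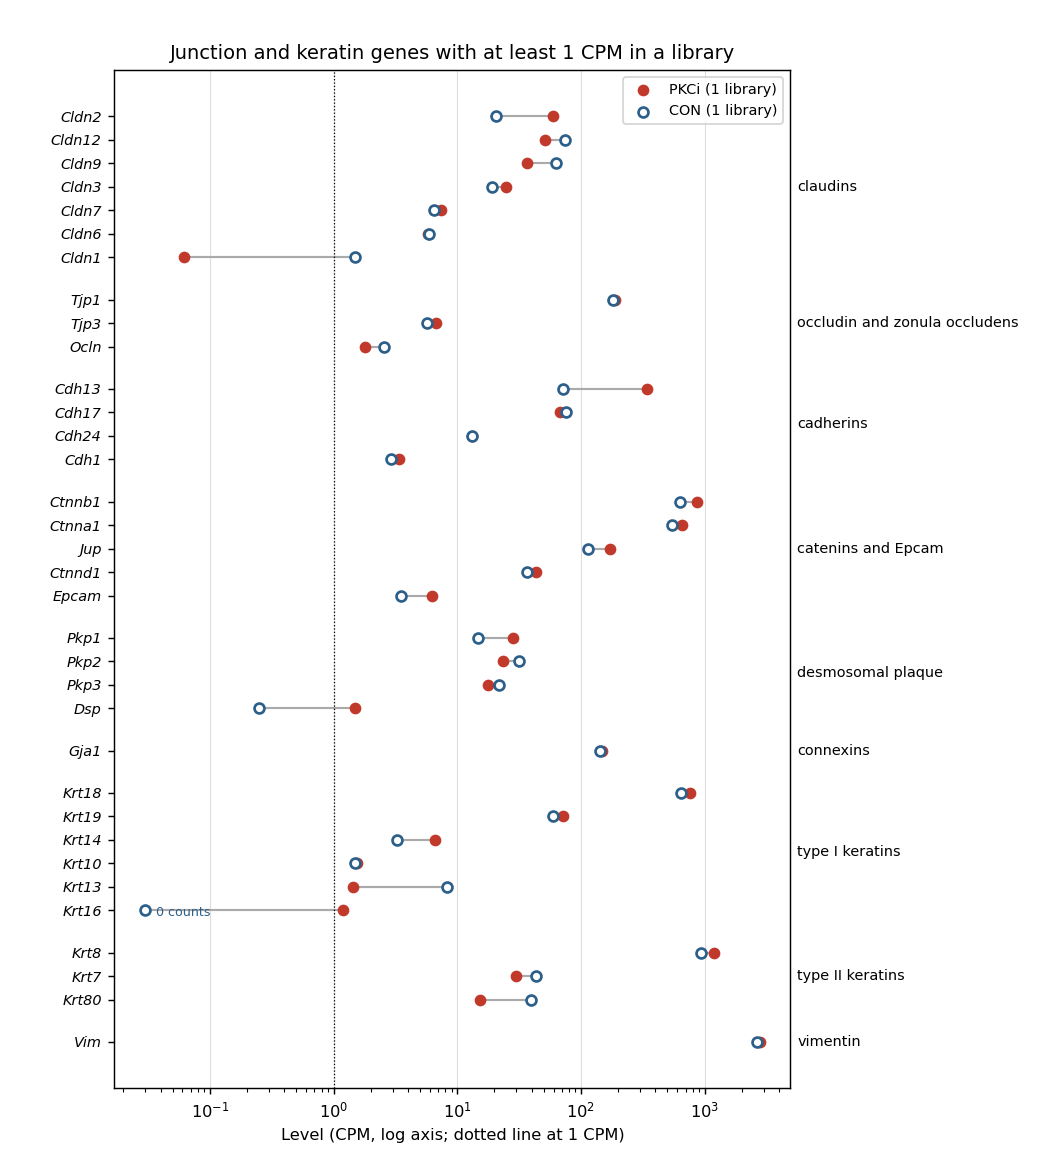
Level of 34 of the 37 measured genes in CPM (log axis) in the PKCi library (filled red) and the CON library (open blue), grouped by family, 1 library per group. Points of Krt8, Krt18, Vim and the catenins lie close together, while Cdh13, Cldn1, Dsp, Krt13 and Krt16 show the widest gaps; Krt16 had 0 counts in the CON library and is drawn at the left edge.

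Claudins kept nearly the same total in CPM with a different make-up. Their summed level was 187 CPM in the PKCi library and 192 CPM in the CON library (0.970-fold, 95% interval 0.923 to 1.02). Cldn2, which forms pores for sodium and water in leaky epithelia, had 951 counts (59.2 CPM) in the PKCi library and 334 counts (20.8 CPM) in the CON library, 2.85-fold higher (95% interval 2.51 to 3.24). Per length, claudins summed to 271 TPM in the PKCi library and 293 TPM in the CON library. Cldn2 made 21.5% of claudin TPM in the PKCi library and 6.91% in the CON library. Cldn9, known for its role in the inner ear, had 592 counts (36.8 CPM) with PKCi and 1014 counts (63.0 CPM) in CON, 1.71-fold lower (95% interval 1.54 to 1.90). It had the highest level per length of the claudins in both libraries, at 83.4 TPM in the PKCi library and 142 TPM in the CON library. Cldn12, a claudin tied to calcium passage in the gut, was at 51.0 CPM with PKCi and 74.5 CPM in CON, 1.46-fold lower (95% interval 1.34 to 1.599). Cldn3, a sealing claudin of many epithelia, was at 24.6 and 18.96 CPM, 1.30-fold higher (95% interval 1.11 to 1.51). Cldn1, a sealing claudin whose loss opens the barrier of mouse skin, had 1 count in the PKCi library and 24 in the CON library, a ratio of 24.0-fold lower whose interval runs from 3.91 to 986. Cldn6 and Cldn7 were at 5.79 and 7.40 CPM with PKCi and at 5.90 and 6.53 CPM in CON, and both intervals included 1.

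Cldn6 (plus strand) and Cldn9 (minus strand) lie on chromosome 17 with their ends, not their starts, 137 bases apart, and they were not alike. For each Cldn6 count there were 6.37 Cldn9 counts in the PKCi library and 10.7 in the CON library, a ratio of 0.597 between the libraries (95% interval 0.435 to 0.818) that library scaling does not touch. A further 7 claudin genes had counts below 1 CPM, among them Cldn15 (8 and 9 counts) and Cldn23 (11 and 6 counts), and 19 were listed at 0 in both libraries.

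The tight junction scaffold gene Tjp1 (ZO-1) was nearly level between the libraries. It had 3042 counts (189 CPM) in the PKCi library and 2904 counts (180 CPM) in the CON library, 1.05-fold (95% interval 0.996 to 1.104). Tjp3 was at 6.78 and 5.66 CPM, and its exons overlap those of Apba3 on the other strand by 40 bases. Occludin (Ocln), a membrane protein of the same strands, had only 29 counts with PKCi and 41 in CON, so the depth could not show a difference (1.41-fold lower, 95% interval 0.857 to 2.36).

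Of 31 further tight junction genes 24 were measured, with a median log2 ratio of 0.06. Of these, 1 was higher and 2 were lower by at least 2-fold, beside 6.53% higher and 5.13% lower of all measured genes. This list and the further lists below were chosen with earlier results of these data known, so their counts only describe the listed genes. Marveld2 (tricellulin), which seals the corners where cells meet, was 2.24-fold higher (219 and 98 counts, 13.6 and 6.09 CPM). Its partner at those corners, Lsr (angulin-1), was 1.81-fold higher (26.8 and 14.9 CPM). The multi-PDZ scaffold gene Mpdz (MUPP1) had 12 counts in the PKCi library and 76 in the CON library, 6.33-fold lower (95% interval 3.42 to 12.8). Mpdz reached 1 CPM in the CON library alone (0.747 CPM with PKCi and 4.72 CPM in CON), so it could be counted only with a difference. The angiomotin relative Amotl2, which binds YAP, was 3.06-fold lower (38.8 and 119 CPM), Amotl1 1.96-fold lower (80 and 157 counts), and Ybx3, which binds ZO-1, 1.84-fold lower (519 and 957 CPM).

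The cadherin Cdh13 had the largest log2 ratio of the measured members. Cdh13 (T-cadherin), which is held in the membrane by a lipid anchor, lacks the part that binds catenins and serves as a receptor for adiponectin, had 5444 counts (339 CPM) in the PKCi library and 1143 counts (71.0 CPM) in the CON library, 4.77-fold higher (95% interval 4.47 to 5.09). It made 59.8% of cadherin TPM with PKCi and 22.6% in CON. Cdh13 (ENSMUSG00000031841) lies on the plus strand of chromosome 8 (GRCm38), at 118283733 to 119324921. Cdh17, the liver-intestine cadherin, was at 68.1 CPM in the PKCi library and 75.2 CPM in the CON library (1.104-fold lower, 95% interval 1.02 to 1.199). Per length it stood below Cdh13 in the PKCi library (49.7 and 98.5 TPM) and above it in the CON library (54.6 and 20.5 TPM). Cdh24 had 210 counts in each library. E-cadherin (Cdh1), the main cadherin of epithelial adherens junctions, was scarce: 54 counts (3.36 CPM) in the PKCi library and 47 counts (2.92 CPM) in the CON library, 1.15-fold (95% interval 0.764 to 1.74). N-cadherin (Cdh2), its usual counterpart in mesenchymal cells, had 2 counts with PKCi and 9 in CON, an interval that included 1 (4.49-fold lower, 95% interval 0.930 to 42.7). Of the 23 cadherin genes 8 were listed at 0, and the endothelial cadherin Cdh5 had 3 and 1 counts.

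Catenins were abundant beside the scarce classical cadherins, and all 4 were modestly higher with PKCi. Beta-catenin (Ctnnb1), which links cadherins to alpha-catenin and also carries Wnt signals, was at 869 CPM in the PKCi library and 632 CPM in the CON library, 1.38-fold higher (95% interval 1.34 to 1.41). Plakoglobin (Jup), which serves in both adherens junctions and desmosomes, was at 171 and 114 CPM, 1.504-fold higher (95% interval 1.42 to 1.597). Alpha-catenin (Ctnna1), the link to actin, was 1.201-fold higher (657 and 547 CPM). The p120 catenin gene Ctnnd1, which stabilises cadherins at the membrane, was 1.17-fold higher (43.1 and 36.8 CPM). Its level is uncertain: 4482 bases of its exons also belong to an annotated gene, Gm28635, on the same strand, which was listed at 0, and 52.4% of its stretches of 100 bases occur in that gene's transcripts. Per length, Cdh1 stood at 2.40 TPM with PKCi and 2.07 TPM in CON, where Ctnnb1 stood at 547 and 395 TPM. Epcam, a surface protein of epithelial cells, had 101 counts (6.28 CPM) in the PKCi library and 56 counts (3.48 CPM) in the CON library, 1.81-fold higher (95% interval 1.29 to 2.55).

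**Figure D2:**
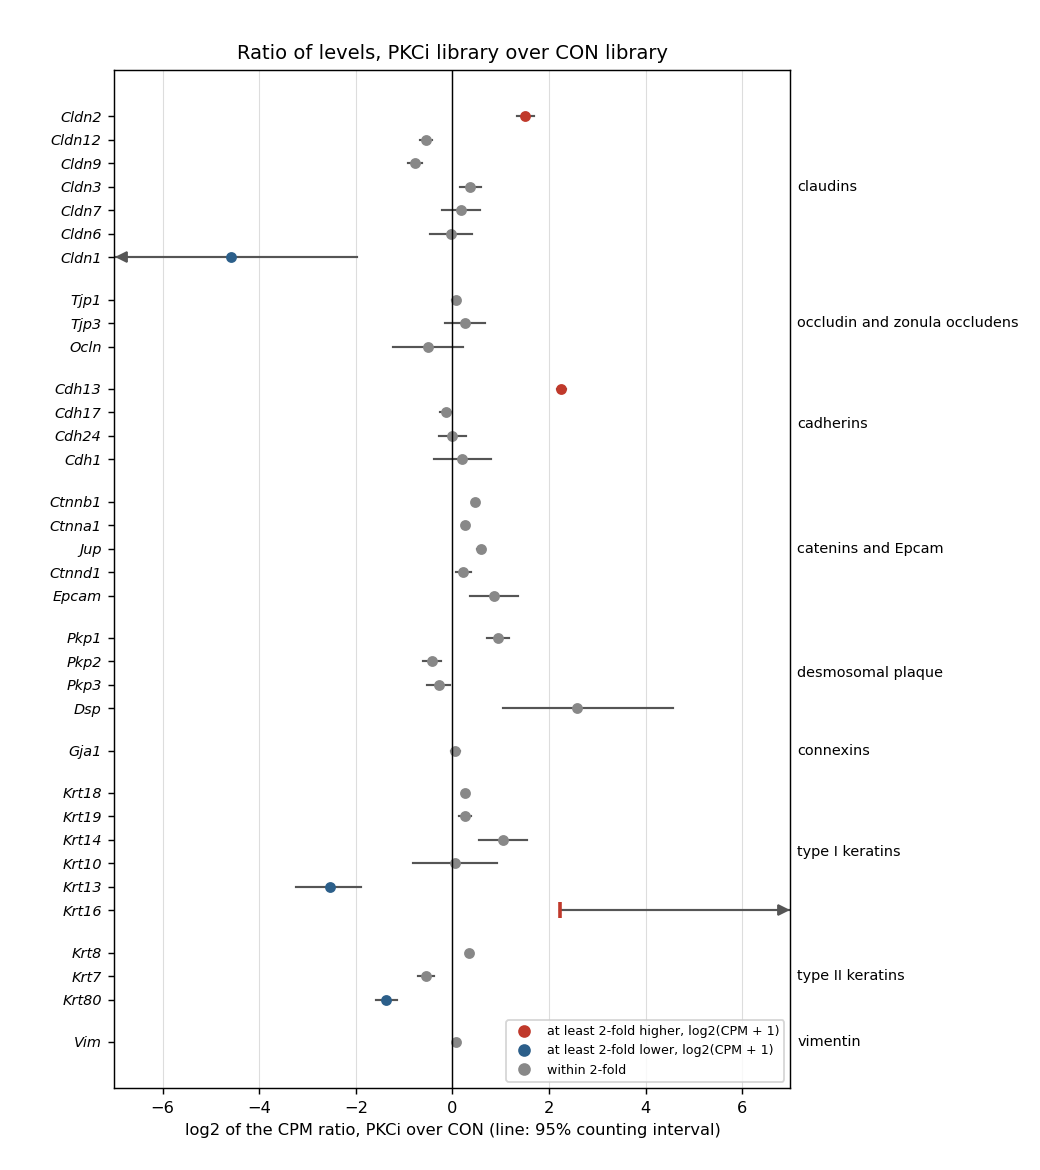
Ratio of CPM, PKCi over CON, on a log2 axis for 34 of the 37 measured genes, with 95% counting intervals as lines and arrows where an interval runs past the axis. Red and blue points are at least 2-fold higher (Cdh13, Cldn2, Krt16) and lower (Cldn1, Krt13, Krt80) on the log2(CPM + 1) scale; Krt16 has a lower bound only, as CON had 0 counts.

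Of 27 other adherens junction genes 20 were measured, with a median log2 ratio of −0.21. Of these, 6 were lower by at least 2-fold and 0 higher, beside 5.13% lower and 6.53% higher of all measured genes. As this list too was chosen with earlier results of these data known, the comparison only describes the listed genes. The vinexin gene Sorbs3, a vinculin-binding adaptor, had 19 counts with PKCi and 158 in CON, 8.31-fold lower (95% interval 5.15 to 14.2). The actin-binding LIM protein gene Ablim1 was 3.62-fold lower (8.21 and 29.7 CPM). Shroom3, which narrows the apex of epithelial cells, was 3.28-fold lower (35 and 115 counts), and the LIM protein gene Ajuba, which binds alpha-catenin, 2.11-fold lower (65.96 and 139 CPM). Plekha7 and Camsap3, which together anchor microtubules at the zonula adherens, were 2.08-fold and 5.55-fold lower (17.3 and 36.0 CPM, and 9 and 50 counts). Camsap3 reached 1 CPM in the CON library alone (0.560 CPM with PKCi and 3.11 CPM in CON), so it could be counted only with a difference.

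Desmosomal cadherins were not seen at all: the 9 desmoglein and desmocollin genes had 0 counts in both libraries, Dsg2 and Dsc2 of simple epithelia included. Desmoplakin (Dsp), which ties desmosomes to keratin, had 24 counts (1.49 CPM) in the PKCi library and 4 counts (0.249 CPM) in the CON library, 6.01-fold higher (95% interval 2.06 to 23.8), at a log2(CPM + 1) ratio just short of 2-fold. Plakophilins, plaque proteins that also have roles outside desmosomes, were all measured and stood in a different order in each library. Pkp1 was at 28.1 CPM in the PKCi library and 14.6 CPM in the CON library, 1.92-fold higher (95% interval 1.64 to 2.26). Pkp2 was 1.34-fold lower (23.5 and 31.4 CPM) and Pkp3 1.22-fold lower (17.7 and 21.6 CPM). Pkp1 was thus first of the 3 per length with PKCi (18.2 TPM) and last in CON (9.44 TPM).

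All 13 further genes of desmosomes, hemidesmosomes and the plakin family were measured, of which 2 were higher and 1 lower by at least 2-fold, where all measured genes had 6.53% and 5.13%, with a median log2 ratio of 0.34. Plectin (Plec), a giant linker of keratin, vimentin and actin, was at 1107 CPM in the PKCi library and 488 CPM in the CON library, 2.27-fold higher (95% interval 2.21 to 2.33). Its relatives Dst and Macf1 were 1.98-fold (811 and 409 CPM) and 1.74-fold higher (560 and 321 CPM), and envoplakin (Evpl) 1.66-fold higher (23.3 and 14.0 CPM). Col17a1, a collagen of hemidesmosomes, had 49 and 11 counts (4.46-fold higher, 95% interval 2.29 to 9.51). It reached 1 CPM in the PKCi library alone (3.05 and 0.684 CPM), so it could be counted only with a difference. Epiplakin (Eppk1), which binds keratin, went the other way with 17 and 72 counts, 4.23-fold lower (95% interval 2.47 to 7.66).

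Gja1, the most widely expressed connexin, had 2386 counts (148 CPM) in the PKCi library and 2285 counts (142 CPM) in the CON library, 1.05-fold (95% interval 0.987 to 1.11). Below 1 CPM, Gja4 had 16 counts with PKCi and 11 in CON, and Gjb5, a connexin of skin and placenta, had 15 and 10, and both intervals included 1. Of the 16 connexin genes 7 were listed at 0 in both libraries.

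Keratins were dominated by the simple-epithelium pair in both libraries. Krt8 had 18992 counts (1182 CPM) in the PKCi library and 15012 counts (933 CPM) in the CON library, 1.27-fold higher (95% interval 1.24 to 1.29). Its partner Krt18 had 12288 counts (765 CPM) with PKCi and 10340 counts (643 CPM) in CON, 1.19-fold higher (95% interval 1.16 to 1.22). Per length Krt8 made 98.9% of type II keratin with PKCi and 97.4% in CON, and Krt18 92.3% and 91.7% of type I keratin. Type I over type II keratin was 0.945 in the PKCi library and 0.998 in the CON library on the TPM scale. Krt8 shares 17.1% of its stretches of 100 bases with other annotated genes, among them the pseudogene Krt8-ps, which had 38 and 36 counts. Krt19, a type I keratin found with Krt8 in ducts and airways, was 1.19-fold higher (71.1 and 59.7 CPM). Krt7, the type II keratin of simple and glandular epithelium, went the other way, at 29.8 CPM with PKCi and 43.5 CPM in CON, 1.46-fold lower (95% interval 1.30 to 1.64).

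The less abundant keratins differed more, in both directions. Krt80, a type II keratin of broad epithelial expression, had 246 counts (15.3 CPM) in the PKCi library and 636 counts (39.5 CPM) in the CON library, 2.58-fold lower (95% interval 2.23 to 3.004). Krt13, the type I keratin of the upper layers of moist stratified epithelium, had 23 counts (1.43 CPM) with PKCi and 133 counts (8.27 CPM) in CON, 5.78-fold lower (95% interval 3.69 to 9.43). Krt14, the type I keratin of basal layers, had 107 counts (6.66 CPM) with PKCi and 52 counts (3.23 CPM) in CON, 2.06-fold higher (95% interval 1.47 to 2.93). Krt16, a keratin of stressed and healing skin, had 19 counts with PKCi and 0 in CON. With CON set at the floor of 3 counts, Krt16 was 6.34-fold higher, and the 95% counting interval begins at 4.67. Part of Krt16 cannot be told from other genes, since 24.3% of its stretches of 100 bases occur in a predicted gene, Gm11597, or in Krt14. The share with Krt14 was not given apart, but Krt14 shares only 2.78% of its own stretches with Krt16. Krt13, Krt19, Krt14 and Krt16 lie in the type I cluster of chromosome 11, and Krt13 is 81.6 kb from Krt14. Of the set, Krt15, Krt19 and Krt9 lie between Krt13 and Krt14. Krt15, another basal keratin, had 1 count with PKCi and 13 in CON (13.0-fold lower, 95% interval 1.95 to 552), and Krt10 of differentiated skin had 25 and 24. Krt5, the usual type II partner of Krt14, and Krt17 were listed at 0 in both libraries, as were 13 of 26 type I and 16 of 23 type II keratin genes in all. Other markers of basal or squamous epithelium, Trp63 and Sox2, were at 9.21 and 11.9 CPM with PKCi and at 22.6 and 24.5 CPM in CON.

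Vimentin (Vim) took more counts than any other member, with 44720 counts (2783 CPM) in the PKCi library and 42810 counts (2661 CPM) in the CON library, 1.05-fold (95% interval 1.03 to 1.06). In CPM the keratins together stood below Vim in both libraries, at 2074 CPM with PKCi and 1734 CPM in CON. Per length, the keratins together came to 2.02 times the Vim level with PKCi and 1.74 times in CON. That order rests on the listed lengths of 4743 bases for Vim, 1958 for Krt8 and 1437 for Krt18. Among other intermediate filament genes 3 of 16 were measured, all lamins of the nucleus: Lmna was nearly level (901 and 956 CPM), Lmnb2 1.62-fold lower (40.3 and 65.1 CPM) and Lmnb1 2.64-fold lower (83.6 and 221 CPM, 95% interval 2.48 to 2.81).

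**Figure D3:**
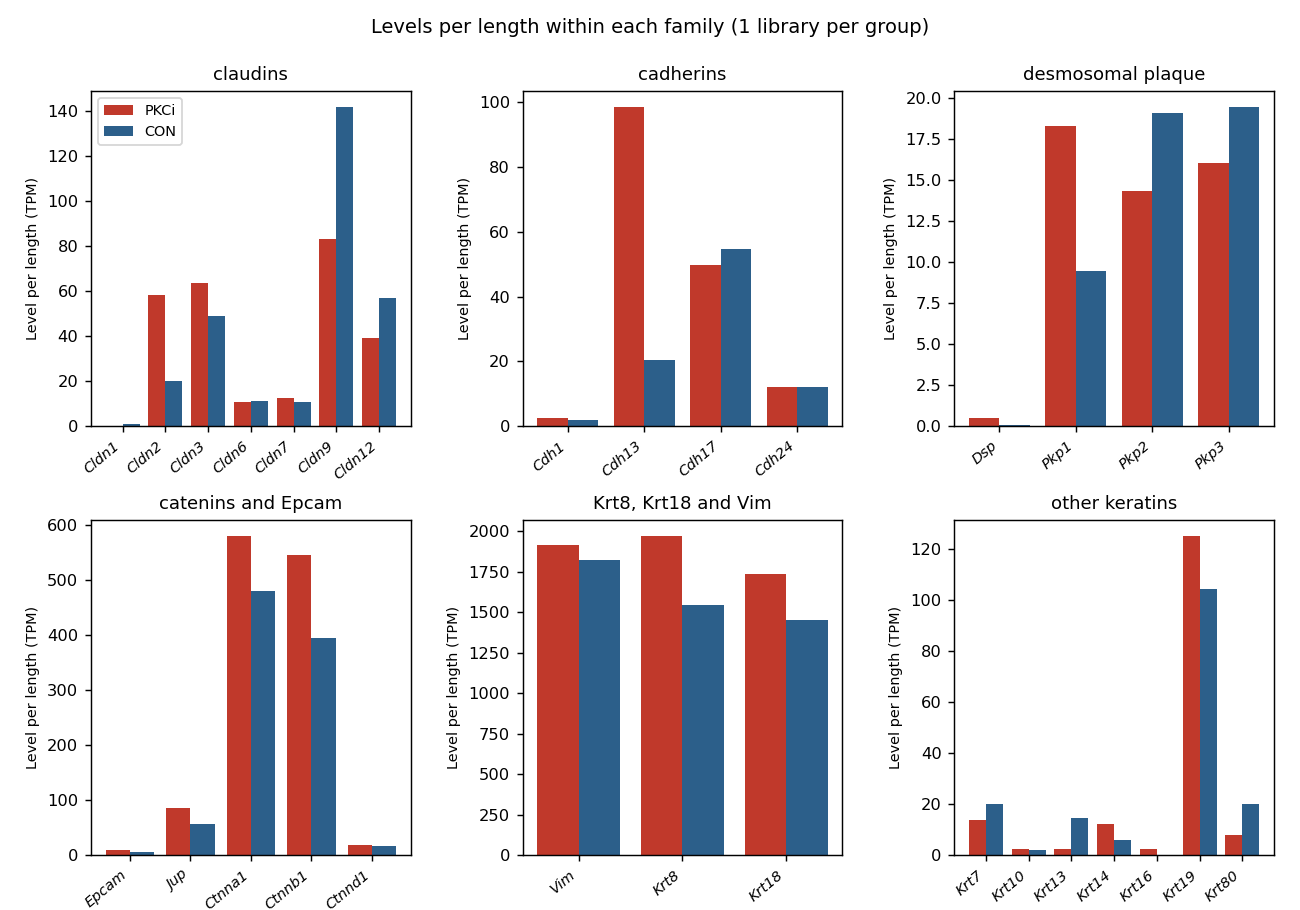
Level per length (TPM, bars from 0, each panel with its own scale) of measured genes by family, with PKCi in red to the left of CON in blue, 1 library each. Cdh13 stands above Cdh17 and Pkp1 above Pkp2 and Pkp3 in the PKCi library, each the other way round in the CON library.

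Regulators of the epithelial state are given beside these values. Of 23 factors that support epithelial genes 16 were measured, of which 2 were higher and 2 lower by at least 2-fold (all measured genes, 6.53% and 5.13%), with a median log2 ratio of 0.22. Foxa1, a pioneer factor of lung and other endoderm, was at 17.4 CPM in the PKCi library and 4.23 CPM in the CON library, 4.11-fold higher (95% interval 3.14 to 5.44), and Klf5 was 2.07-fold higher (104 and 50.1 CPM). Klf4 was 1.87-fold higher (150 and 80.3 CPM). The basal-cell factor Trp63 was 2.46-fold lower (95% interval 2.02 to 2.99), and Grhl3 had 8 and 36 counts. Grhl3 reached 1 CPM in the CON library alone (0.498 CPM with PKCi and 2.24 CPM in CON), so it could be counted only with a difference. Of the splicing factors that set epithelial isoforms, Esrp2 was at 12.1 and 10.7 CPM and Esrp1 had 9 and 18 counts, and Grhl2, a widely used activator of Cdh1, had 6 and 1. Of 15 factors that repress epithelial genes or act with them 8 were measured, 7 of them above a log2 ratio of 0, as were 49.2% of all measured genes, and 0 past 2-fold, with a median of 0.48. Zeb2 was at 144 CPM with PKCi and 72.2 CPM in CON, 1.99-fold higher (95% interval 1.85 to 2.14), Snai1 was 1.86-fold higher (41.4 and 22.3 CPM), Zeb1 1.54-fold higher (28.4 and 18.5 CPM), and Snai2 was listed at 0 in both libraries.

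**Figure D4:**
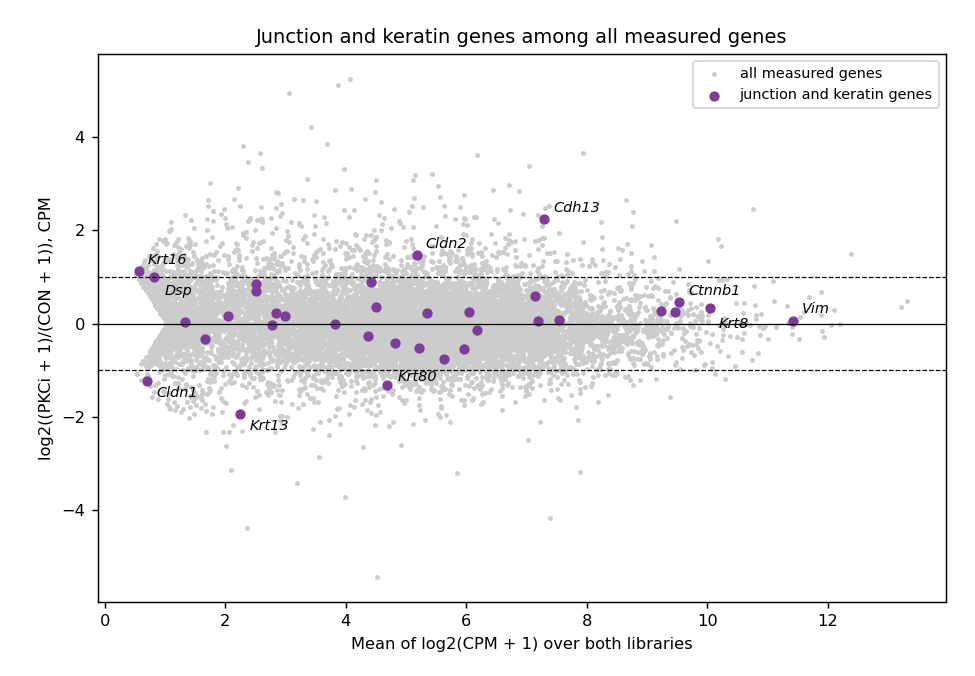
Log2 ratio of PKCi over CON, log2((PKCi + 1)/(CON + 1)) in CPM, against the mean log2(CPM + 1) for 12273 measured genes (grey) and 34 of the 37 measured junction and keratin genes (purple), with dashed lines at 2-fold. Of these 34 genes Cdh13 is the farthest above at 2.24 and Krt13 the farthest below at −1.93.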

How the data were processed

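Poly(A) libraries from PKCi-treated and untreated CMT167R cells were sequenced as paired-end reads, per the labels' protocols, which name a stranded kit in one text, and retinas with a kit not called stranded in another. HISAT2 2.0.5 and the builds GRCm38 and mm10 were used, per the submitters' processing notes, with counting program and strand setting not given in the sources used here. Whole-number counts per gene were deposited by the authors and used as raw counts although the table's name speaks of FPKM. No sample column was left unmapped. Of the 144 genes, 141 had the same position in GENCODE M21. Exons of 11 of the 37 measured members overlap another gene's. Among partners with listed counts, only that of Tjp3 held over 10% of the member's counts. For another member the partner had no listed counts, so its share is not known.

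Counts were scaled to the library total. A gene was called measured from 1 CPM in either library, the log2 ratio used a pseudocount of 1 CPM, and a fold is the plain ratio of CPM, with a 95% Clopper-Pearson interval from the counts. Since reads were not tagged by molecule, they are not independent, and intervals and floors cover counting error only. TPM used the gene length listed per the file headers. Whether that length matches the transcripts made in these cells was not tested, so comparisons per length between genes depend on it. No test across conditions was possible with 1 library per group, and genes were counted by size. Ratios of neighbouring genes used conditional odds ratios. Stretches of 100 bases shared between genes were read from GENCODE M21 transcripts, and promoter windows are RefSeq's. Members and lists were chosen with earlier results of these data known. Every member at 1 CPM or more could be named, and members below it with at least 5 counts, or as a marker or a gene at 0; the promoters and neighbouring pairs shown were chosen after their values were seen. From each companion list up to 6 genes with the largest ratios were named, with a fixed few whatever their values. The calculation was tested on simulated libraries. Scaling factors came from edgeR 4.0.16 and DESeq2 1.42.0, intervals from scipy 1.17.1. Some genes are included in the counts but not reported here by name or drawn.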

Additional observations from a re-analysis of the deposited data

How the results depend on the processing

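The counts of 4 higher and 4 lower genes past 2-fold, and the median log2 ratio of 0.16, were recomputed under 8 other settings: edgeR's TMM and DESeq2's size factors, the protein-coding total, TPM, pseudocounts of 0.25 and 4 CPM, a filter of 5 CPM and no filter. The higher count ranged from 3 to 5, the lower from 3 to 5, and the median from 0.09 to 0.22, while the shares of all genes ranged from 3.84% to 9.86% higher and from 3.01% to 6.95% lower. On the TPM scale 4 of 42 members were higher, beside 9.86% of all genes, a share no larger than that background. Cdh13 and Cldn2 stayed on the higher side and Krt13 and Krt80 on the lower side of 2-fold in all 8. Dsp joined the higher genes with the protein-coding total and with a pseudocount of 0.25 CPM. Krt16 and Cldn1 dropped out with a pseudocount of 4 CPM and with a filter of 5 CPM, and Cldn1 also on the TPM scale, which added Krt15 and Krt36. A filter on the mean of both libraries at 1 CPM, chosen after seeing the data, left 3 genes on each side. Over the settings of scaling and pseudocount the log2 ratio ranged from 0.37 to 2.52 for Krt16, from −2.48 to −0.43 for Cldn1, from 0.37 to 1.81 for Dsp and from −2.34 to −1.18 for Krt13. No paired analysis was possible because each group has 1 library. Genes with few counts, such as Dsp, Krt16, Cldn1 and Krt15, have intervals several-fold wide.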
